A study of Mus musculus with 12 samples.

Results

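This account covers 39 genes for the enzymes, transporters and regulators of glycolysis and glycogen metabolism in mouse tibialis anterior, a leg muscle made mainly of fast fibres. They were chosen by gene symbol, by a rule that uses no measured value, but with earlier results of these data known. All 39 were found among the 23923 genes analysed. RNA was sequenced from 12 mice aged 6 weeks on a C57BL6/J;129S1/SvImJ background, with 1 library per mouse. The 6 controls were Myf6 cre/+; Smyd1 flox/+ and the 6 Smyd1 CKOs were Myf6 cre/+; Smyd1 flox/-. Both groups therefore carried the Myf6 Cre allele and a floxed Smyd1 allele, and by the study's methods also a YFP reporter at Rosa26. The second Smyd1 allele was wild type in controls and null in CKOs. Cre was expressed from the Myf6 locus, which is active in myofibres, so other cell types of the muscle were not its target. Smyd1 is a striated muscle lysine methyltransferase that associates with myosin and its chaperones.

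Glucose enters a myofibre through transporters of the Slc2 family, is phosphorylated by hexokinase and is either stored as glycogen or broken down by glycolysis to pyruvate and lactate. Glycogen is built on the glycogenin protein by glycogen synthase and branching enzyme. It is broken down by phosphorylase, which phosphorylase kinase activates when calcium rises during contraction. Several steps have a form that predominates in muscle and other forms that are used in most other tissues. Fast fibres are known for high levels of these enzymes and of stored glycogen.

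The values are FPKM, fragments scaled to transcript length and to the number of mapped reads, so levels can be compared between genes per length. Fold changes are on the scale of log2(FPKM + 0.1), CKO minus control. P-values are from limma, with the Benjamini-Hochberg adjustment over all genes tested, and a gene is called at an adjusted p under 0.05. The sum of all FPKM in a mouse ran from 110124 to 156610, and the number of genes at 0 from 8415 to 10110. Correlations between mice of one group lay between 0.9435 and 0.972. As deposited, the log2 fold change was above 0 for 77.9% of the 12695 genes tested, with a median of 0.18. After dividing each mouse by its median ratio to the others (median-ratio scaling) the median was 0.01, so the fold change of each member is given both ways.

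Smyd1 itself lay between 32.95 and 47.1 FPKM in controls (median 34.9) and between 27.8 and 39.9 FPKM in CKOs (median 33.5). The groups overlapped, with a log2 fold change of -0.13 (SE 0.12, adjusted p = 0.545) as deposited and -0.32 (SE 0.08, adjusted p = 0.0799) after scaling. The sources used here do not state which part of the gene was deleted, so this gene-level FPKM could not check the genotypes. Why it was not lower by the adjusted test was not tested. By western blot, the paper found no detectable SMYD1 in the tibialis anterior of CKO mice. Below, CKO stands for the libraries labelled as such. In whole muscle, fewer cells of a type and less RNA per cell cannot be told apart.

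Of the 39 genes, 37 passed the filter of 0.1 FPKM in at least 6 mice, and Aldoc and Eno1 did not. As deposited, 1 of the 37 was higher in CKO at the adjusted threshold, Gpi1, and none was lower, where 2.02% of all genes tested were called higher and 0.268% lower. Without adjustment 3 genes were higher at p under 0.05 (Gpi1, Gys1 and Pfkl) against 18.1% of all genes, and 2 were lower (Gpd2 and Phka1) against 1.76%. The median log2 fold change of the 37 was 0.03, with 19 values above 0 and 18 below. In Gpi1 and Gys1 every CKO lay above every control, against 2.23% of all genes, and in no member did every CKO lie below every control, against 0.189%.

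After scaling, no member was called higher, against 0.764% of all genes, and Gpd2 was called lower, against 0.701%. At unadjusted p under 0.05, 1 member was higher, Gpi1 (6.63% of all genes), and 14 members, 37.8% of those tested, were lower (7.4% of all genes). These 14 were Slc2a4, Hk2, Pfkfb4, Aldoa, Pgam2, Pkm, Gpd1, Gpd2, Phka1, Phkb, Ugp2, Gyg, Gbe1 and Ppp1r3a. The median log2 fold change of the members was -0.16, with 25 of 37 below 0. In no member did the 6 CKOs lie wholly above or wholly below the controls after scaling, against 0.788% and 0.733% of all genes.

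Many of these genes are abundant in muscle, and 69.5% of abundant genes had a log2 fold change below 0 after scaling. Among the 1423 genes tested with a mean of at least 10 FPKM, a level chosen after the values were seen, 332 (23.3%) were lower at unadjusted p under 0.05 and the median was -0.10. Of the 24 members at that level, 13 (54.2%) were lower and the median was -0.26. Of the 13 members below it, 1 was lower, and the median was 0.08.

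**Figure D1:**
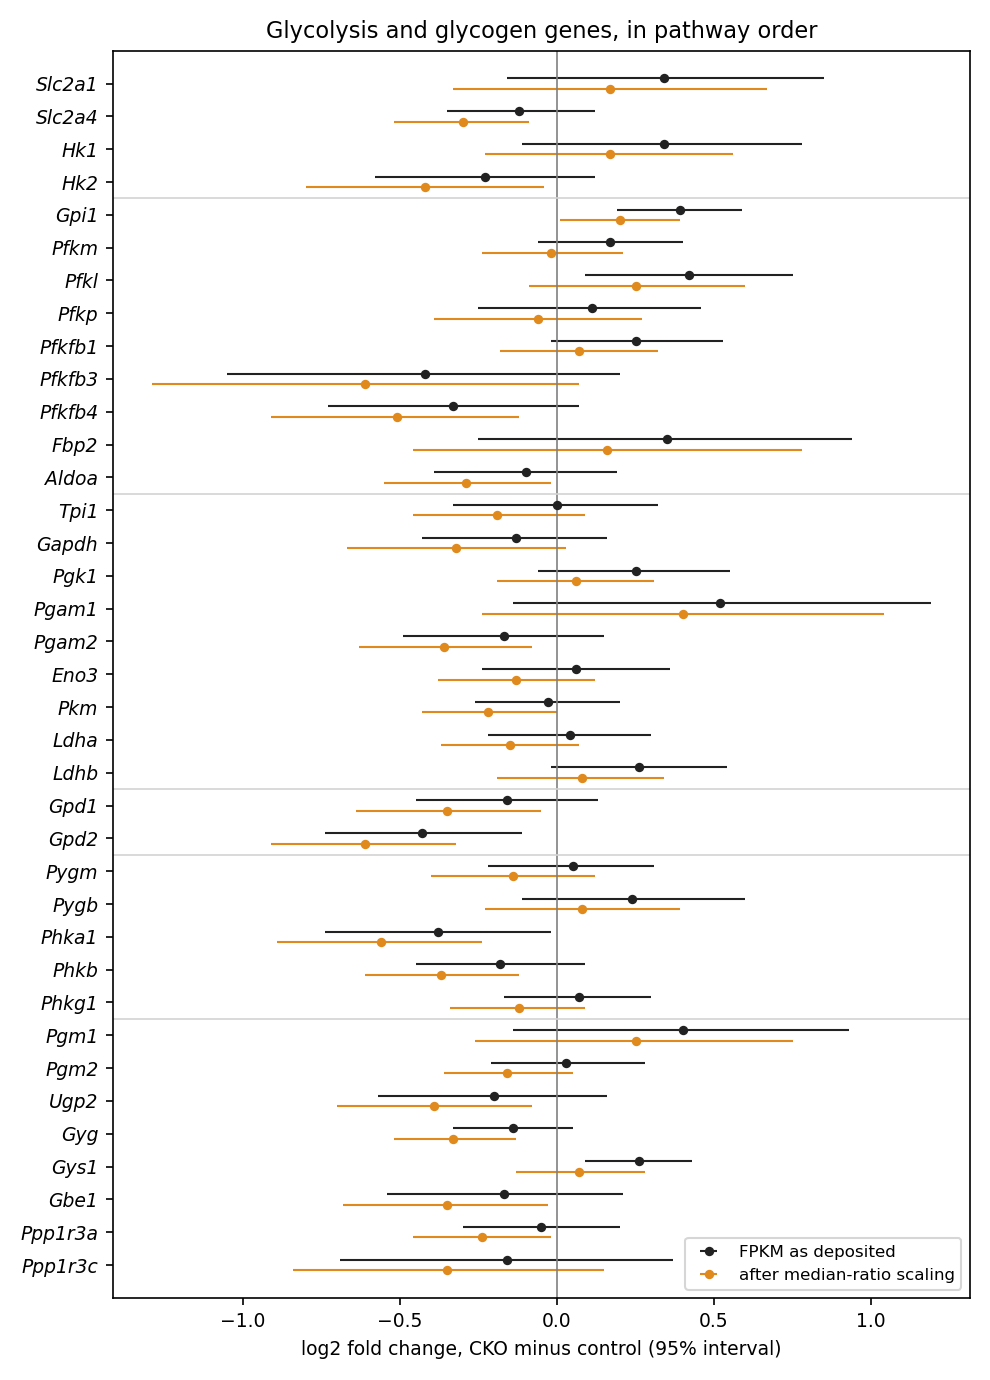
Log2 fold change, CKO minus control, of the 37 members tested, in pathway order from top to bottom, with 95% intervals from limma (6 mice per group). Black points are FPKM as deposited and orange points are after median-ratio scaling. The orange points lie to the left of the black ones throughout, and Gpd2 and Phka1 have intervals below 0 in both.

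The promoters of the 5 members past unadjusted p of 0.05 as deposited are printed to show the sequence at which these RNAs start. Each window runs from 250 bases before to 50 bases after a start in RefSeq (GRCm38.p6), 5′ to 3′ on the gene's strand, and was matched by gene symbol. Capitals mark matches on either strand to the E-box CANNTG, the motif of myogenic helix-loop-helix factors, and to ACGTG and GCGTG, cores of the hypoxia response element known from glycolytic genes. An E-box CACGTG also holds ACGTG, so a window can count under both. Gpi1 is at chr7:34230287-34230586 (minus strand), Gys1 at chr7:45434589-45434888 (plus strand) and Pfkl at chr10:78009758-78010057 (minus strand). Gpd2 has a first window at chr2:57237428-57237727 and a second at chr2:57238132-57238431 (plus strand), and Phka1 is at chrX:102644197-102644496 (minus strand).
Gpi1: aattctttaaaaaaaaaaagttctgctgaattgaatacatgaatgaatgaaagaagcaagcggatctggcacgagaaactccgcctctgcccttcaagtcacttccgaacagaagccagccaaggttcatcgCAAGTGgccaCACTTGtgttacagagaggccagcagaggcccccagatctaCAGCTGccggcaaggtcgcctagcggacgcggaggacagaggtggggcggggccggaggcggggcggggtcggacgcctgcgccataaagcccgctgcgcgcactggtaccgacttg
Gys1: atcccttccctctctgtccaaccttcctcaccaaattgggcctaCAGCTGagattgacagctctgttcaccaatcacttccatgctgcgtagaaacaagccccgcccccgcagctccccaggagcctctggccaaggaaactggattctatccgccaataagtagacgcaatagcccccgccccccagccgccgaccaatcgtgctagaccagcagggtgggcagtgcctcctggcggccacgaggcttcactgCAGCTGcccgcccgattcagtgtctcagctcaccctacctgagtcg
Pfkl: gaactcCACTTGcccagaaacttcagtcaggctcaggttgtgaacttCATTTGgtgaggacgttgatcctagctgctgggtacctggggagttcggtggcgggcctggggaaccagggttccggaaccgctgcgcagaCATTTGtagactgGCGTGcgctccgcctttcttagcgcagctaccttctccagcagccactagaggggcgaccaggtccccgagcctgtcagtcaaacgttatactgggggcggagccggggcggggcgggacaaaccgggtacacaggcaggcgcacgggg
Gpd2, first window: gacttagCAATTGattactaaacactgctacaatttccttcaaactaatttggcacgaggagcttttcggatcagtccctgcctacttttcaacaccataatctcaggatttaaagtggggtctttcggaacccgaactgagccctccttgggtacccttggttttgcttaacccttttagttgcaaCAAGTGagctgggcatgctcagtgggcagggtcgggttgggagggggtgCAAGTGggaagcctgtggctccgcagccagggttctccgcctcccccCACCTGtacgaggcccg
Gpd2, second window: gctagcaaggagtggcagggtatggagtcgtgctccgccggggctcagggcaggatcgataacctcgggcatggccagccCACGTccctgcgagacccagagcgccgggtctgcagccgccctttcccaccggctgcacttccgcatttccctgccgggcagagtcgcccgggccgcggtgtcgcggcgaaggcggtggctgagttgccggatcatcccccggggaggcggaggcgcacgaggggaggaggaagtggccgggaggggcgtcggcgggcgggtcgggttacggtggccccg
Phka1: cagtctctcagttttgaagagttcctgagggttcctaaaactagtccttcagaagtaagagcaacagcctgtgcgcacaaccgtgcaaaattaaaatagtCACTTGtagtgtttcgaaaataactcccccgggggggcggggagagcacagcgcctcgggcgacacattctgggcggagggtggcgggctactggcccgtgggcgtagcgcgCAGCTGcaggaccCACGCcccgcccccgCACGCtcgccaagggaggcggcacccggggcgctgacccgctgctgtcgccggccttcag

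These windows differ in what they hold. The Gpi1 window holds 3 E-boxes and the Gys1 window 2, and neither holds a hypoxia core. The Pfkl window holds 3 E-boxes and 1 hypoxia core. The first Gpd2 window holds 4 E-boxes and no hypoxia core, and the second no E-box and 1 hypoxia core. The Phka1 window holds 2 of each. Over 35 members with a window, 73.1% of 52 windows held an E-box against 72.3% of all 32851 windows of the same length, and 69.2% held a hypoxia core against 43.8%. The GC box GGGCGG was in 51.9% of member windows against 35.7%, a MEF2 motif in 5.77% against 3.19%, and TATAAA in 5.77% against 13.6%. The median GC content was 59.7% in member windows and 52.7% in all, and windows of 1 gene can overlap, so these shares are descriptions. A match is not a site of binding.

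Glucose uptake and its first phosphorylation showed no call. Slc2a4, the insulin-responsive transporter of muscle, lay between 56.3 and 74.5 FPKM in controls (median 62.7) and between 50.1 and 75.1 FPKM in CKOs (median 56.5). Slc2a4 had a log2 fold change of -0.12 (SE 0.11, adjusted p = 0.567) as deposited and -0.30 (SE 0.10, adjusted p = 0.174) after scaling. CKO 2 and CKO 4 lay inside the control range and CKO 5 above it, while the other CKOs lay below it. Slc2a1, the transporter of most other cells, lay between 0.545 and 1.33 FPKM in controls (median 0.979) and between 0.664 and 1.68 FPKM in CKOs (median 1.19), with a log2 fold change of 0.34 (SE 0.24, adjusted p = 0.424) as deposited and 0.17 (SE 0.23) after scaling.

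Hk2, the main hexokinase of muscle, lay between 45.6 and 94.3 FPKM in controls (median 49.7) and between 39.8 and 63.1 FPKM in CKOs (median 45.8). Hk2 had a log2 fold change of -0.23 (SE 0.17, adjusted p = 0.442) as deposited and -0.42 (SE 0.18, adjusted p = 0.309) after scaling. A single mouse in each group, control 6 and CKO 5, stood above the rest. Hk1, the hexokinase of most other tissues, was near 1 FPKM, from 0.595 to 1.45 in controls (median 1.02) and from 0.981 to 1.69 in CKOs (median 1.17), with a log2 fold change of 0.34 (SE 0.21, adjusted p = 0.376) as deposited and 0.17 (SE 0.18) after scaling.

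Gpi1, glucose-6-phosphate isomerase, which makes fructose 6-phosphate for glycolysis, rose in CKO by 0.39 on the log2 scale as deposited (95% interval 0.19 to 0.59, adjusted p = 0.046). Controls lay between 27.5 and 33.02 FPKM (median 30.95) and CKOs between 33.4 and 45.2 FPKM (median 40.4), so the groups did not overlap. After scaling the log2 fold change was 0.20 (SE 0.09, adjusted p = 0.321) and the ranges overlapped. The call held in 2 of the 12 fits that left out a mouse, those without control 1 and without CKO 2, and each of the other 10 ended it. Over all 12 fits the adjusted p ran from 0.0204 to 0.112.

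The muscle form of phosphofructokinase, Pfkm, which catalyses the committed step of glycolysis, lay between 367 and 418 FPKM in controls (median 391) and between 370 and 538 FPKM in CKOs (median 446). Its log2 fold change was 0.17 (SE 0.11, adjusted p = 0.387) as deposited and -0.02 (SE 0.11) after scaling. Pfkl, the liver form, lay between 0.485 and 0.732 FPKM in controls (median 0.597) and between 0.708 and 1.05 FPKM in CKOs (median 0.799). Pfkl had a log2 fold change of 0.42 (SE 0.15, adjusted p = 0.157) as deposited, with only CKO 5 below the highest control, and 0.25 (SE 0.16) after scaling. Pfkp, the platelet form, lay between 0.705 and 0.947 FPKM in controls (median 0.770) and between 0.653 and 1.30 FPKM in CKOs (median 0.798), with a log2 fold change of 0.11 (SE 0.17, adjusted p = 0.742) as deposited and -0.06 (SE 0.15) after scaling.

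The bifunctional enzymes that set the level of fructose 2,6-bisphosphate, the activator of phosphofructokinase, showed no call. Pfkfb1 lay between 5.84 and 8.78 FPKM in controls (median 6.72) and between 6.38 and 10.5 FPKM in CKOs (median 8.29), with a log2 fold change of 0.25 (SE 0.13, adjusted p = 0.285) as deposited and 0.07 (SE 0.12) after scaling. Pfkfb3 lay between 3.20 and 6.98 FPKM in controls (median 4.71) and between 2.105 and 7.59 FPKM in CKOs (median 3.29), with a log2 fold change of -0.42 (SE 0.29, adjusted p = 0.423) as deposited and -0.61 (SE 0.32, adjusted p = 0.416) after scaling. CKO 4 had the highest Pfkfb3 of all 12 mice and CKO 2 the lowest, so the CKOs spanned the whole range of the controls. Pfkfb4 lay between 2.36 and 4.13 FPKM in controls (median 2.75) and between 1.38 and 3.22 FPKM in CKOs (median 2.35). Pfkfb4 had a log2 fold change of -0.33 (SE 0.19, adjusted p = 0.332) as deposited and -0.51 (SE 0.18, adjusted p = 0.209) after scaling. Fbp2, the muscle fructose bisphosphatase that runs the step in reverse, had a control median of 10.01 FPKM and a CKO median of 13.2 FPKM, with the CKOs spread from 5.70 to 24.9 (log2 fold change 0.35, SE 0.28, as deposited and 0.16, SE 0.29, after scaling).

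Aldoa, the muscle aldolase and the most abundant member, lay between 1647 and 2116 FPKM in controls (median 1844) and between 1471 and 2209 FPKM in CKOs (median 1682). Its log2 fold change was -0.10 (SE 0.14, adjusted p = 0.706) as deposited and -0.29 (SE 0.12, adjusted p = 0.314) after scaling. CKO 5 had the highest value of all mice and CKO 6 the lowest. Aldoc, the aldolase of brain, was at most 0.0706 FPKM in controls and at most 0.151 FPKM in CKOs, and was not tested.

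From triose phosphate to lactate, 9 of 10 genes were tested and none was called. Pgam2, the muscle phosphoglycerate mutase, lay between 597 and 1005 FPKM in controls (median 769) and between 546 and 842 FPKM in CKOs (median 657). Pgam2 had a log2 fold change of -0.17 (SE 0.15, adjusted p = 0.546) as deposited and -0.36 (SE 0.13, adjusted p = 0.218) after scaling. The ranges overlapped widely, with control 1 highest and CKO 3 lowest. Pgam1, the form of other tissues, lay between 0.0400 and 0.253 FPKM in controls (median 0.114) and between 0.0467 and 0.428 FPKM in CKOs (median 0.250), with a log2 fold change of 0.52 (SE 0.31, adjusted p = 0.361) as deposited and 0.40 (SE 0.30) after scaling.

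Eno3, the muscle enolase, lay between 874 and 1354 FPKM in controls (median 976) and between 946 and 1337 FPKM in CKOs (median 1035), with a log2 fold change of 0.06 (SE 0.14, adjusted p = 0.838) as deposited and -0.13 (SE 0.12) after scaling. Pkm, pyruvate kinase, lay between 249 and 295 FPKM in controls (median 284) and between 247 and 352 FPKM in CKOs (median 255). The log2 fold change of Pkm was -0.03 (SE 0.11, adjusted p = 0.904) as deposited and -0.22 (SE 0.10, adjusted p = 0.352) after scaling. Triose phosphate isomerase (Tpi1) and phosphoglycerate kinase (Pgk1) had log2 fold changes of 0.00 (SE 0.15) and 0.25 (SE 0.14) as deposited, and -0.19 (SE 0.13) and 0.06 (SE 0.12) after scaling.

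Ldha, the lactate dehydrogenase subunit that predominates in fast muscle, lay between 202 and 257 FPKM in controls (median 224) and between 197 and 303 FPKM in CKOs (median 221). Ldha had a log2 fold change of 0.04 (SE 0.12, adjusted p = 0.882) as deposited and -0.15 (SE 0.10) after scaling. Ldhb, the subunit of heart and oxidative muscle, lay between 5.95 and 9.19 FPKM in controls (median 7.03) and between 6.96 and 9.99 FPKM in CKOs (median 8.94), with a log2 fold change of 0.26 (SE 0.13, adjusted p = 0.279) as deposited and 0.08 (SE 0.12) after scaling. All CKOs but CKO 4 lay above the control median for Ldhb, and the CKOs spanned the whole control range for Ldha.

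The levels of some glycolytic genes are uncertain. The study kept no read that mapped to several places, and some members share sequence with pseudogenes. Gapdh, a gene of high expression in most tissues, was listed at only 1.86 to 3.41 FPKM. Of the 50-base windows of its longest protein-coding transcript, 82.5% also occur in pseudogene transcripts. The same share was 68% for Pgk1, which had a control median of 8.06 FPKM, and 52.8% for Eno1, which was listed below 0.0001 FPKM in all 12 mice. It was 41.5% for Pgam1, 30.5% for Pkm, 27% for Ldhb, 18.9% for Gpi1 and 16.6% for Ldha, and 0% for Pgam2, Eno3, Pygm and Pfkm. Whether dropped reads lowered the level of each gene, and by how much, was not tested. Both groups overlapped for Gapdh, with a log2 fold change of -0.13 (SE 0.14, adjusted p = 0.608) as deposited and -0.32 (SE 0.16, adjusted p = 0.411) after scaling.

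**Figure D2:**
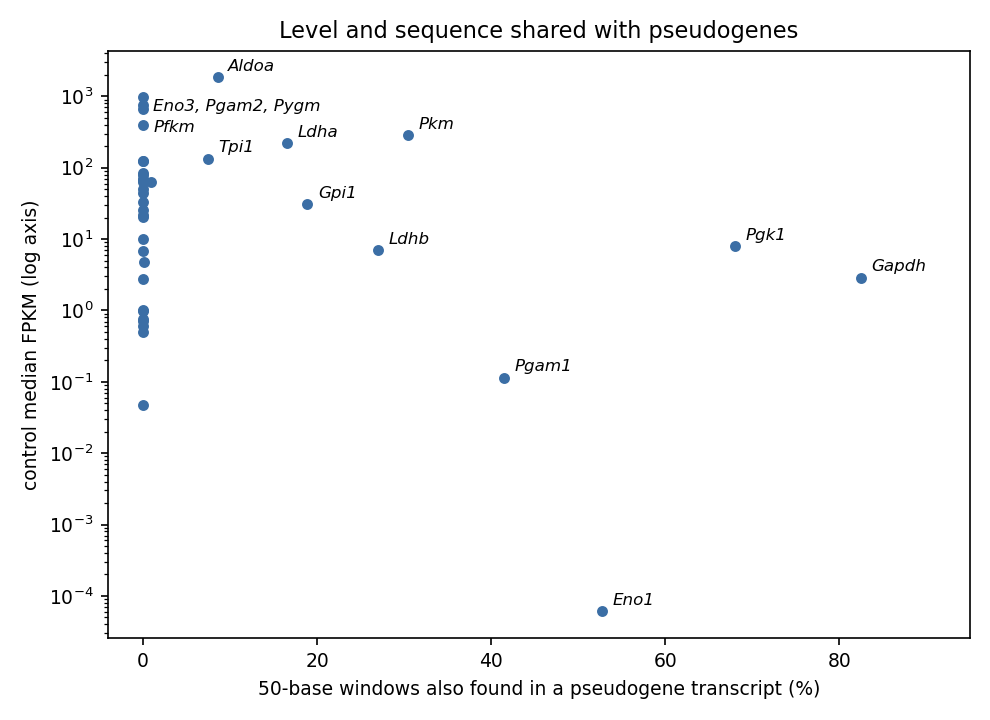
Control median FPKM of the 39 members (vertical, log axis) against the percent of 50-base windows shared with an annotated pseudogene transcript (horizontal). The windows are those of each gene's longest protein-coding transcript. Each point is a gene. Gapdh at 82.5%, Pgk1 at 68%, Eno1 at 52.8% and Pgam1 at 41.5% lie below 10 FPKM, Pkm at 30.5% lies at 284 FPKM, and genes at 0% span the range from Aldoc at 0.0466 to Eno3 at 976 FPKM.

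The 2 enzymes of the glycerol phosphate shuttle, which carries reducing equivalents from cytosolic NADH to the mitochondrion, both had negative log2 fold changes. Gpd2, the mitochondrial glycerol-3-phosphate dehydrogenase, lay between 17.4 and 26.1 FPKM in controls (median 21.6) and between 12.9 and 23.7 FPKM in CKOs (median 14.3). Of the 6 CKOs, CKO 1, 2, 3 and 6 lay below every control, while CKO 4 and CKO 5 lay inside the control range. The log2 fold change was -0.43 (SE 0.15, adjusted p = 0.133) as deposited. After scaling Gpd2 was lower by the adjusted test, with a log2 fold change of -0.61 (SE 0.14, adjusted p = 0.0427). The call after scaling held in 3 of the 12 fits that left out a mouse, those without control 1, CKO 4 or CKO 5, and was lost in the other 9. Over all 12 the adjusted p ran from 0.00406 to 0.109. With quantile normalization in place of median-ratio scaling, Gpd2 was not called (log2 fold change -0.54, adjusted p = 0.067). Gpd1, the cytosolic enzyme of the shuttle, lay between 64.8 and 82.5 FPKM in controls (median 79.8) and between 53.8 and 99.0 FPKM in CKOs (median 65.7). Its log2 fold change was -0.16 (SE 0.14, adjusted p = 0.519) as deposited and -0.35 (SE 0.14, adjusted p = 0.262) after scaling.

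For glycogen breakdown, Pygm, the muscle phosphorylase that releases glucose 1-phosphate from glycogen, was not called. It lay between 552 and 737 FPKM in controls (median 655) and between 531 and 773 FPKM in CKOs (median 672), with a log2 fold change of 0.05 (95% interval -0.22 to 0.31, adjusted p = 0.861) as deposited and -0.14 (SE 0.12) after scaling. Pygb, the brain form, lay between 0.558 and 1.05 FPKM in controls (median 0.720) and between 0.742 and 1.20 FPKM in CKOs (median 0.914), with a log2 fold change of 0.24 (SE 0.17, adjusted p = 0.423) as deposited and 0.08 (SE 0.15) after scaling.

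The subunits of phosphorylase kinase had log2 fold changes of both signs as deposited, and all 3 were below 0 after scaling. Phka1, the muscle form of its regulatory alpha subunit, lay between 53.8 and 92.2 FPKM in controls (median 69.2) and between 39.1 and 76.4 FPKM in CKOs (median 51.5). The log2 fold change of Phka1 was -0.38 (SE 0.17, adjusted p = 0.230) as deposited and -0.56 (SE 0.15, adjusted p = 0.0831) after scaling. As for Gpd2, CKO 4 and CKO 5 were the highest of the CKOs. Phkb, the regulatory beta subunit, lay between 34.6 and 49.1 FPKM in controls (median 43.7) and between 30.6 and 47.1 FPKM in CKOs (median 37.2), and its log2 fold change was -0.18 (SE 0.12, adjusted p = 0.427) as deposited and -0.37 (SE 0.12, adjusted p = 0.148) after scaling. Phkg1, the catalytic gamma subunit of muscle, had log2 fold changes of 0.07 (SE 0.11) as deposited and -0.12 (SE 0.10) after scaling, from a control median of 63.3 FPKM.

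For glycogen synthesis, Gys1, the muscle glycogen synthase, lay between 29.2 and 34.0 FPKM in controls (median 32.7) and between 34.3 and 41.7 FPKM in CKOs (median 39.3). Every CKO lay above every control, by a margin as small as that between 34.0 and 34.3 FPKM in the closest pair. The log2 fold change was 0.26 (SE 0.08, adjusted p = 0.107) as deposited and 0.07 (SE 0.10, adjusted p = 0.808) after scaling, when the groups overlapped. Gyg, glycogenin, the protein primer of the glycogen particle, lay between 24.4 and 28.6 FPKM in controls (median 25.7) and between 21.02 and 27.5 FPKM in CKOs (median 23.1). Gyg had a log2 fold change of -0.14 (SE 0.09, adjusted p = 0.389) as deposited and -0.33 (SE 0.09, adjusted p = 0.102) after scaling. The primer and the synthase thus had log2 fold changes of opposite sign as deposited, and neither was called.

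Ugp2 and Gbe1 passed p under 0.05 only after scaling and without adjustment. Ugp2, which makes UDP-glucose, lay between 105 and 189 FPKM in controls (median 125) and between 77.8 and 157 FPKM in CKOs (median 111), with log2 fold changes of -0.20 (SE 0.17, adjusted p = 0.509) and, scaled, -0.39 (SE 0.15, adjusted p = 0.228). Gbe1, the branching enzyme, lay between 16.5 and 35.2 FPKM in controls (median 20.3) and between 14.9 and 25.4 FPKM in CKOs (median 19.99). The log2 fold change of Gbe1 was -0.17 (SE 0.18, adjusted p = 0.611) as deposited and -0.35 (SE 0.15, adjusted p = 0.303) after scaling. The medians of Gbe1 were nearly the same as deposited, but after scaling they were 22.5 in controls and 17.8 in CKOs. The high control was control 1.

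Ppp1r3a, the muscle subunit that brings protein phosphatase 1 to glycogen, lay between 62.6 and 87.1 FPKM in controls (median 68.0) and between 55.6 and 83.4 FPKM in CKOs (median 68.5). Ppp1r3a had a log2 fold change of -0.05 (SE 0.12, adjusted p = 0.841) as deposited and -0.24 (SE 0.10, adjusted p = 0.318) after scaling. Ppp1r3c, another such subunit, varied more, from 39.9 to 113 FPKM in controls and from 40.8 to 95.3 FPKM in CKOs (log2 fold change -0.16, SE 0.25, as deposited and -0.35, SE 0.23, after scaling). For phosphoglucomutase, the annotation sources exchange the names Pgm1 and Pgm2. The row named Pgm2 held a control median of 125 FPKM and a log2 fold change of 0.03 (SE 0.12) as deposited and -0.16 (SE 0.10) after scaling. The row named Pgm1 held a control median of 0.503 FPKM and a log2 fold change of 0.40 (SE 0.25) as deposited and 0.25 (SE 0.24) after scaling.

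**Figure D3:**
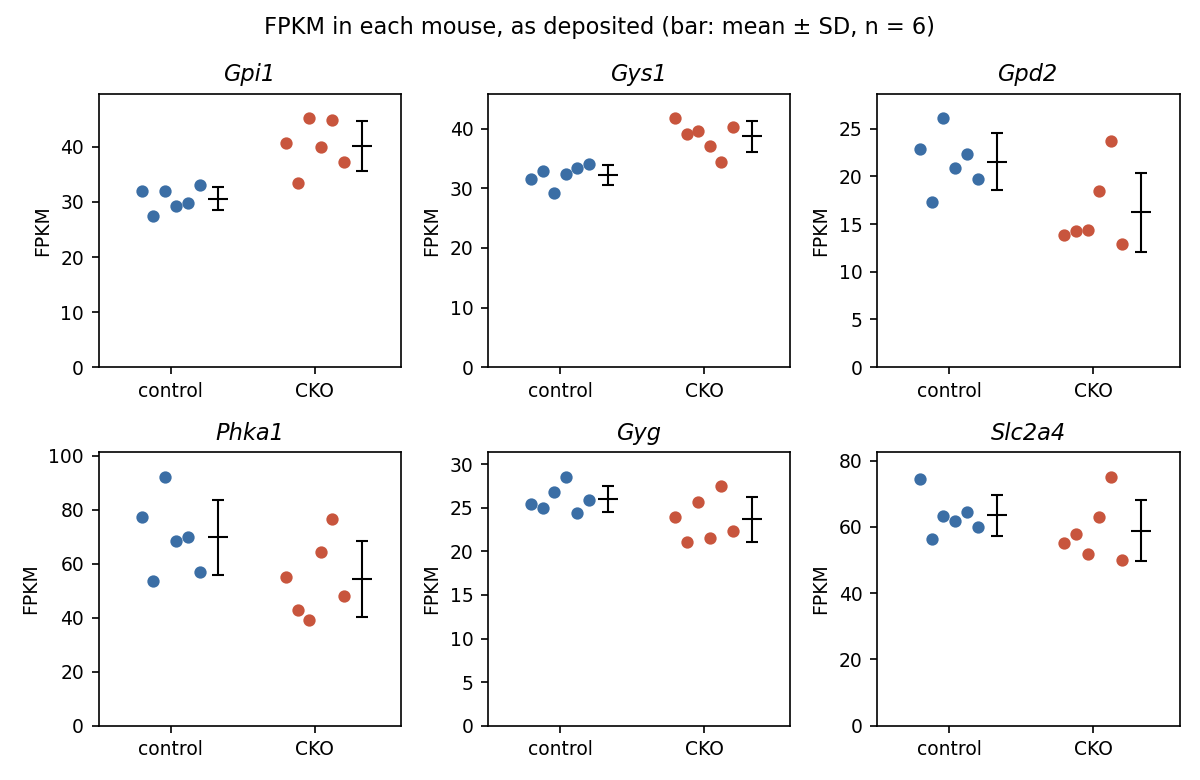
FPKM as deposited of Gpi1, Gys1, Gpd2, Phka1, Gyg and Slc2a4 in each of 6 controls (blue) and 6 CKOs (red), with the mean and SD of each group in black. The groups do not overlap in Gpi1 and Gys1, while CKO 5 lies among the controls in Gpd2, Phka1 and Gyg and above them in Slc2a4.

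The ratio of the muscle form to the non-muscle form within a mouse does not depend on how that mouse is scaled, apart from the 0.1 FPKM added to each value. The muscle form held nearly all of the FPKM of its family in both groups. For hexokinase the median Hk2 share was 98.06% among controls and 97.35% among CKOs, for phosphofructokinase the Pfkm share 99.65% and 99.59%, and for lactate dehydrogenase the Ldha share 97.09% and 96.55%. For phosphorylase the Pygm share was 99.89% and 99.86%, and for the transporters the Slc2a4 share was 98.45% and 98.24%.

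Of the 10 log2 ratios compared by a two-sided exact permutation test over all assignments of the mice to groups, none passed 0.05, where the smallest p possible was 0.00216. The means of 7 ratios were lower in CKO and those of 3 were higher, counting Aldoa/Aldoc and Eno3/Eno1, whose denominators were below the filter. The largest differences were those of Pgam2/Pgam1 at -0.69 (SE 0.39, exact p = 0.108), Pfkfb1/Pfkfb3 at 0.68 (SE 0.42, exact p = 0.13) and Hk2/Hk1 at -0.57 (SE 0.32, exact p = 0.106), all with an adjusted p of 0.238 over the 10 ratios. In these 3 ratios, 5 CKOs, 1 CKO and 5 CKOs respectively lay below the control median, so most CKOs shared the direction of the mean. The size of the Pgam2/Pgam1 difference depended on the added value, as Pgam1 had a control median of only 0.114 FPKM. It was -0.96 with 0.01 FPKM added and -0.30 with 1 FPKM added. With 1 FPKM added, Pfkfb1/Pfkfb3 was at 0.56 and Hk2/Hk1 at -0.41, so Pgam2/Pgam1 was no longer the largest. The ratio Slc2a4/Slc2a1 differed by -0.46 (SE 0.27, exact p = 0.13), Pfkm/Pfkl by -0.25 (SE 0.16, exact p = 0.136) and Pfkm/Pfkp by 0.06 (SE 0.19, exact p = 0.755). The ratio Ldha/Ldhb differed by -0.22 (SE 0.14, exact p = 0.143) and Pygm/Pygb by -0.20 (SE 0.14, exact p = 0.175). All 6 CKOs lay below the control median for Ldha/Ldhb. Ldhb, grouped here with the non-muscle forms, is also the subunit of oxidative muscle. The ratios Aldoa/Aldoc (-0.24, SE 0.26, exact p = 0.364) and Eno3/Eno1 (0.06, SE 0.12, exact p = 0.665) rest on denominators below the filter. With Eno1 at most 7.11e-05 FPKM, the denominator of Eno3/Eno1 was almost wholly the added 0.1 FPKM. That ratio followed the level of Eno3, which depends on scaling, and could not compare the 2 forms. Aldoc, at most 0.151 FPKM, was also near or below the added value.

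Each of the 10 ratios was also tested in 12 fits that each left out 1 mouse, and 5 ratios fell under 0.05 in 1 such fit. Without control 2 the exact p of Ldha/Ldhb was 0.00866, without CKO 2 that of Pgam2/Pgam1 was 0.0195, and without CKO 4 that of Pfkfb1/Pfkfb3 was 0.0346. Without CKO 5 the exact p of Pfkm/Pfkl was 0.0281 and that of Aldoa/Aldoc, with its denominator below the filter, was 0.0303. These p-values are not adjusted for the number of ratios or fits. A threshold of 0.05 passes about 1 in 20 tests where there is no difference. Over the forms themselves, the median log2 fold change as deposited was 0.04 for the 9 muscle forms. It was 0.30 for the 8 non-muscle forms tested, Ldhb among them. After scaling these medians were -0.15 and 0.12. Over all genes tested the median was 0.18 as deposited and 0.01 after scaling. The 8 non-muscle forms were all among the 13 members with a mean under 10 FPKM, whose medians were 0.25 and 0.08. The 24 members at or above that level had medians of -0.07 and -0.26, so form and level were not separated here.

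**Figure D4:**
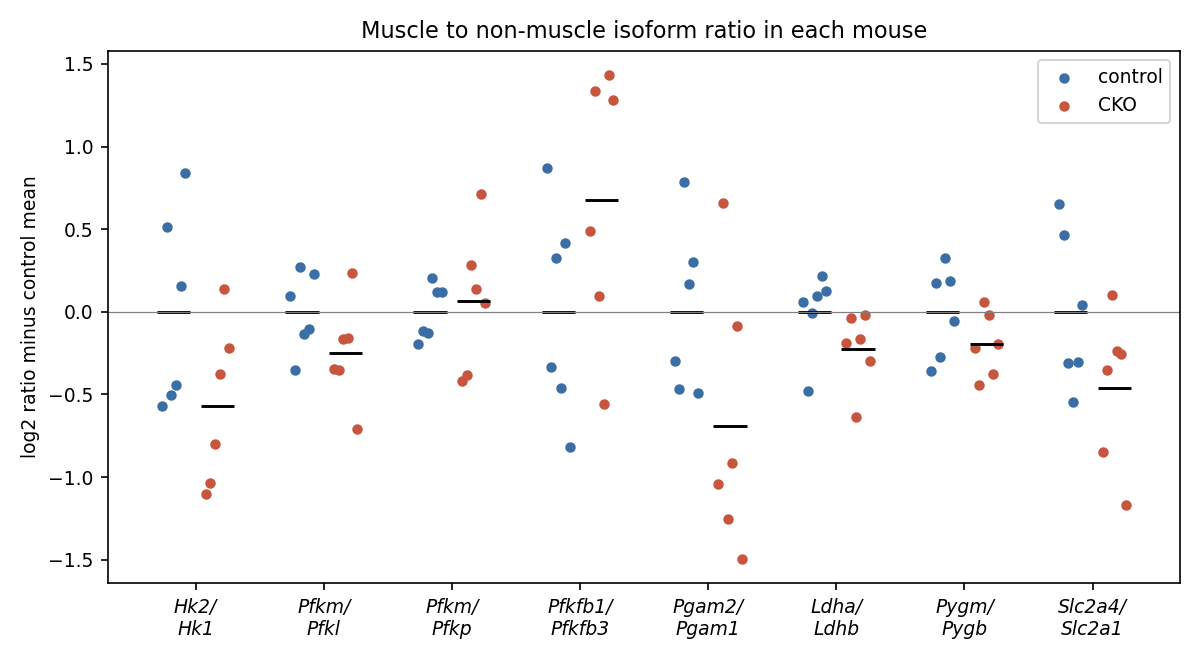
Log2 ratio of muscle to non-muscle form in each mouse, set to a control mean of 0, for the 8 pairs whose non-muscle form passed the filter. Ldhb, counted as a non-muscle form, is also the subunit of oxidative muscle. Blue points are controls, red points are CKOs and black bars are group means; the groups overlap in all 8 pairs, and none differed by the exact permutation test.

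The CKOs differed among themselves in these genes. The median log2 deviation of the 37 members from their mean over all mice, after scaling, lay between 0.00 and 0.12 in the 6 controls. In the CKOs it was 0.20 in CKO 5 and 0.02 in CKO 4, -0.07 in CKO 1 and -0.09 in CKO 2, and -0.26 in both CKO 3 and CKO 6. CKO 5 therefore stood above every control, while 4 CKOs stood below every control. CKO 5 held the highest scaled value of 10 of the 37 members, and CKO 6 the lowest value of 11. Leaving out CKO 5, picked for its high values in these same members, tends to lower their CKO means by construction. In that fit 17 members were lower after scaling at unadjusted p under 0.05. After adjustment 4 were called lower, namely Gpd2, Phka1, Gyg and Slc2a4. The shares over all genes in that fit are not given, so these counts are no separate evidence of a decrease. Across all fits that left out a mouse after scaling, 9 to 17 members were lower without adjustment and 0 to 4 with it. The shares over all genes are not given for these fits either.

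Slow-fibre genes also differed among the CKOs. The summed FPKM of 8 slow-fibre markers lay between 29.2 and 71.8 in controls and was 172.7 in CKO 1, 120.2 in CKO 3 and 342.5 in CKO 6, against 44.6 to 53.4 in the other 3 CKOs. Of the 8 slow-fibre markers 7 were higher at unadjusted p under 0.05 as deposited, where 18.1% of all genes were, and none after adjustment. After scaling 6 were higher and 1 lower without adjustment, against 6.63% and 7.4% of all genes, and none with it. None was at 0 throughout. CKO 3 and CKO 6, with the lowest member levels, were among the 3 with high slow-fibre sums. The third, CKO 1, had a higher sum than CKO 3 but a member level of -0.07. CKO 2, with the lowest sum of the CKOs, was at -0.09. The part of fibre type in the member levels was not tested. The 8 fast-fibre markers summed to between 18473 and 30664 FPKM in controls and between 22575 and 26053 in CKOs, far above the slow-fibre sums in both groups. Of these 8, 3 were higher and none lower without adjustment as deposited, against 18.1% and 1.76% of all genes. With adjustment 1 was called higher as deposited, against 2.02%. After scaling 3 were higher and 4 lower without adjustment, against 6.63% and 7.4% of all genes. With adjustment 1 was called higher after scaling, against 0.764%. The median log2 fold change of the fast-fibre markers was -0.25 as deposited and -0.44 after scaling.

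Markers of other cells gave no call at the adjusted threshold. Without adjustment 2 of 6 fibroblast, 3 of 6 Schwann cell and 2 of 4 adipocyte markers tested were higher as deposited, where 18.1% of all genes were, and none of the endothelial, macrophage, blood or smooth muscle markers. After scaling these counts were 1 fibroblast, 0 Schwann cell and 1 adipocyte marker, where 6.63% of all genes were higher. The summed fibroblast markers reached 827 FPKM in control 1, against 220 to 277 in the other controls and 292 to 490 in the CKOs. The part of these cells in the member levels was not tested.

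**Figure D5:**
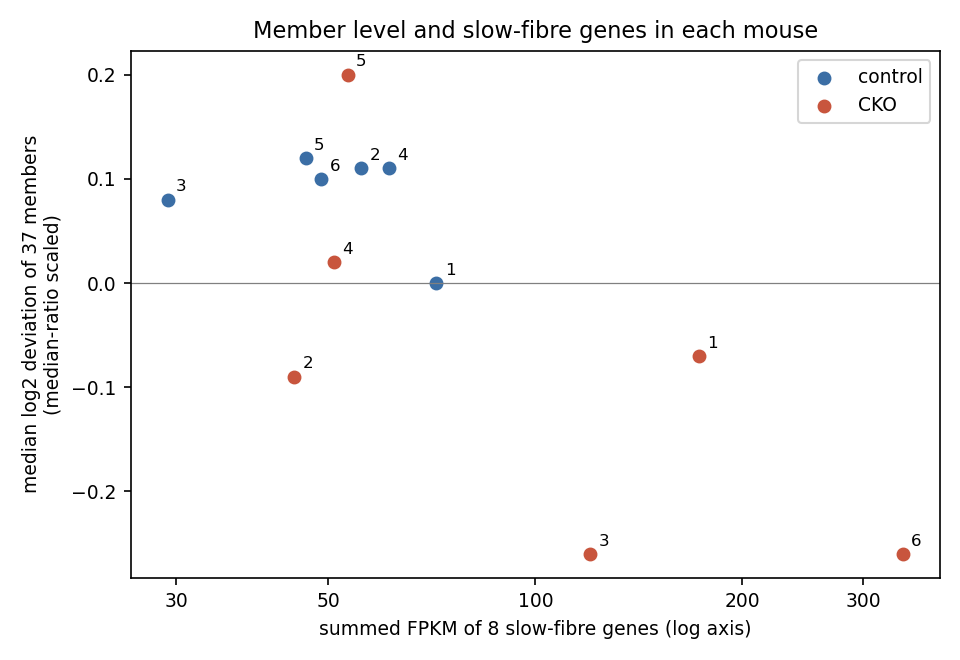
Median log2 deviation of the 37 tested members from their mean over 12 mice, after median-ratio scaling (vertical), against the summed FPKM of 8 slow-fibre genes (horizontal, log axis), with the replicate number beside each point. Controls (blue) lie between 0.00 and 0.12, and CKO 5 (red) lies above them at 0.20. CKO 3 and CKO 6 lie lowest at -0.26 with slow-fibre sums of 120.2 and 342.5, while CKO 1 lies at -0.07 with a sum of 172.7.

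A second list held 42 further genes of glucose and glycogen metabolism, of which 41 were in the files and 30 were tested. As deposited, 1 of them was called higher, Pgm5, against 2.02% of all genes, and none lower, against 0.268%. After scaling none was called higher, against 0.764%, and 1 lower, Slc37a4, against 0.701%. At unadjusted p under 0.05 the counts were 2 higher and 1 lower as deposited, against 18.1% and 1.76% of all genes. After scaling they were 1 higher and 7 (23.3%) lower, against 6.63% and 7.4% of all genes. Among all genes with a mean of at least 10 FPKM, 23.3% were lower after scaling. The median log2 fold change of the 30 was 0.02 as deposited and -0.14 after scaling, against 0.03 and -0.16 for the 37 members tested.

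Pgm5, aciculin, a phosphoglucomutase relative of muscle adhesion sites without that enzyme activity, rose by 0.80 on the log2 scale (SE 0.19, adjusted p = 0.0397) as deposited, from a control median of 1.401 to a CKO median of 2.66 FPKM. Its call was lost after scaling (0.62, adjusted p = 0.0882) and held in 3 of the 12 fits that left out a mouse as deposited, those without control 1, control 3 or CKO 3. It was also lost with quantile normalization (adjusted p = 0.104), a replicate block (0.0707), no filter (0.0623) and limma without the trend (0.0572). Slc37a4, the transporter of glucose 6-phosphate into the endoplasmic reticulum, lay between 12.2 and 21.8 FPKM in controls (median 16.5) and between 8.04 and 16.3 FPKM in CKOs (median 12.1). Its log2 fold change was -0.49 (SE 0.16, adjusted p = 0.117) as deposited and -0.68 (SE 0.15, adjusted p = 0.032) after scaling, past the threshold. After scaling that call held in 5 of the 12 fits that left out a mouse, those without control 1, control 2, CKO 2, CKO 4 or CKO 5, with adjusted p from 0.00743 to 0.0833 over all 12.

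The other genes of the second list past unadjusted p of 0.05 were Adpgk, an ADP-dependent enzyme that phosphorylates glucose, at 0.52 (SE 0.19, adjusted p = 0.159) as deposited, and 6 that were lower after scaling only. These were the mitochondrial pyruvate carrier subunit Mpc2 at -0.41 (SE 0.11, adjusted p = 0.0711), the glucose 1,6-bisphosphate synthase Pgm2l1 at -0.39 (SE 0.16), and the glycogen synthase kinases Gsk3a at -0.38 (SE 0.13) and Gsk3b at -0.23 (SE 0.11). The lactate transporter of fast fibres, Slc16a3, was at -0.31 (SE 0.14) and Bpgm, bisphosphoglycerate mutase, at -0.27 (SE 0.12). None of these was called after adjustment.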

How the data were processed

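RNA from the tibialis anterior of 6 control and 6 CKO mice was sequenced after ribosomal RNA depletion. The authors trimmed adapters, aligned with bowtie2 and tophat at no more than 2 mismatches, dropped reads with several matches in the genome and deposited FPKM from cufflinks, 1 value per gene symbol. The submitters' processing notes name TopHat2 2.0.10, Cufflinks 2.1.1 and mm9. The files analysed here hold no counts, so the depth is unknown and no counting interval is given.

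Of 23950 rows per file, 27 held a date in place of a symbol and were dropped. FPKM were transformed to log2(FPKM + 0.1), and genes that reached 0.1 FPKM in 6 or more mice were tested with limma 3.58.1 (R 4.3.3), with an intensity trend and no block, two-sided, as deposited and after median-ratio scaling. Isoform ratios were compared by an exact permutation test. The code was tested on simulated data. Promoters, from RefSeq GRCm38.p6, and transcripts for the 50-base windows, from GENCODE release 21, were matched by symbol and are of another build than mm9.

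The members and lists were chosen with earlier results of these data known. Every member is named, with full values for those at unadjusted p under 0.05 in either fit and for both forms of each pair. Genes of the second list are named at unadjusted p under 0.05. An item is not reported here and was left out of that list's counts, though it stays in the fit. No source gives litters or cultures of the 12 mice. Alternatives were pseudocount 1, a filter at 1 FPKM or none, quantile normalization, limma without the trend, sample weights, a replicate block and leaving out each mouse. For the ratios a pseudocount of 0.01 was also used.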

Additional observations from a re-analysis of the deposited data

Results flagged for a closer look

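In 4 of 74 groups of 6 mice, 1 mouse stood far from the others for a member, where chance gives about 1 in 20 groups. Hk2 was 94.34 FPKM in control 6, against 53.58 FPKM in the next control and 45.59 FPKM in the lowest. Hk2 was also high in CKO 5, at 63.06 FPKM, against 47.63 FPKM in the next CKO. Fbp2 was 15.61 FPKM in control 2, against 10.59 FPKM in the next control. Gbe1 was 35.17 FPKM in control 1, against 23.36 FPKM in the next control.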

How the results depend on the processing

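Scaling and sample weights both moved the counts. Beside 1 member higher and 0 lower after adjustment, and 3 higher and 2 lower without, median-ratio scaling gave 0 and 1, and 1 and 14, with a median log2 fold change of -0.16 in place of 0.03. Quantile normalization gave 0 higher and 0 lower after adjustment, and 1 higher and 6 lower without, with a median log2 fold change of -0.02. The shares of all genes without adjustment are not given for that setting. A pseudocount of 1, no filter and limma without the trend each gave 0 higher after adjustment, and limma without the trend 1 lower without it. Sample weights gave 2 higher and 1 lower after adjustment, and 8 higher without. Over all genes, the adjusted calls were 257 higher and 34 lower as deposited, and 97 and 89 after median-ratio scaling. They were 101 and 68 with quantile normalization, and 1400 and 115 with sample weights. The cause of these differences was not tested.

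The replicate number as a block gave 0 higher after adjustment (Gpi1 adjusted p = 0.0509), and 4 higher and 2 lower without. The block with scaling gave 0 higher and 1 lower after adjustment, 0 higher and 13 lower without, and a median of -0.16. Mice with the same number did not deviate together, with correlations from -0.0861 to 0.164 and 2 of 6 controls matching best with their own number.

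Leaving out each mouse as deposited gave 0 to 1 higher and 0 to 1 lower after adjustment, and 3 to 6 higher and 1 to 4 lower without. Over all genes, the adjusted calls in these fits ran from 88 to 1075 higher and from 18 to 69 lower. After scaling, as an alternative chosen after seeing the data, leaving out each mouse gave 0 to 4 lower after adjustment, and 0 to 2 higher and 9 to 17 lower without. The shares over all genes in the scaled fits are not given, so these counts are no separate evidence about the members. Between 0 and 2 isoform ratios passed an exact p of 0.05. No result changed sign past its threshold. The number of reads is unknown, so levels near the filter, such as Pgam1 and Pfkl, have no stated counting error.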
